A study of Mus musculus and Homo sapiens with 12 samples.

Results

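The genes described here are the long non-coding RNAs (lncRNAs) with the most counts in the chromatin-associated RNA of mouse embryonic stem (mES) cells. They were chosen by their Input counts, as autosomal mouse genes annotated as lincRNA, antisense, processed_transcript, sense_intronic, sense_overlapping or bidirectional_promoter_lncRNA with at least 5000 counts summed over the 3 Input libraries. Malat1, Neat1, the well-known imprinted lncRNAs Meg3, Rian, Mirg, H19, Kcnq1ot1, Airn and Peg13, and Gas5, Zfas1 and the Snhg genes were left out by name. Of 54446 genes in the mouse tables, 77 met this rule, among 8946 autosomal genes of these biotypes. They comprised 41 lincRNA, 20 processed_transcript, 14 antisense and 2 bidirectional_promoter_lncRNA genes, and none of the other biotypes. Biotypes and coordinates are those of GENCODE on GRCm38.

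The series holds m5C meRIP–seq of chromatin-associated RNA (caRNA), in which fragmented RNA is pulled down with an antibody to 5-methylcytosine (IP) and sequenced beside the RNA before pull-down (Input). Wild-type mES cells and wild-type K562 cells, a human erythroleukaemia line, each had 3 Input and 3 IP libraries, with no knockout or treatment group in the libraries used here. The mES cells were grown in serum with LIF and the inhibitors CHIR99021 and PD0325901 and were passaged off feeder cells. The antibody entry in the sample labels goes against the titles, naming no antibody for mES cell IP libraries and the m5C antibody for K562 Input libraries, and groups were taken from the titles. Nothing in the labels says that replicates came from separate cultures, so p-values measure the spread between these libraries only.

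Many lncRNAs stay at or near the chromatin on which they were made, either because they are retained there by nuclear RNA-binding proteins or because they are spliced and exported poorly. Some act in cis at neighbouring genes, some are precursors of microRNAs or small nucleolar RNAs, and for many no function is known. Cytosine methylation at carbon 5 is laid down in RNA by NSUN proteins and TRDMT1, and TET2 can oxidise it.

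Total gene counts ran from 29007088 to 34752646 in mES cell Input and from 473398 to 592324 in IP, and from 10477119 to 11865285 in K562 Input and from 93110 to 111286 in IP. A count of 3 therefore equals 5.06 to 6.34 CPM (counts scaled to the total gene counts of the library) in mES cell IP libraries and 27.0 to 32.2 CPM in K562 IP libraries. Summed Input CPM of 8 mES cell markers was 2161 to 2187, against 54.6 to 56.9 for 8 fibroblast markers of the kind feeder cells carry, led by Col1a1 and Col1a2, with Lum at 0. Their part in any value here was not tested. Of the K562 markers, GATA1, TAL1, HBG1 and KLF1 were detected, and HBG2 and HBE1 were listed at 0. Genes lying inside a highly counted coding gene on the same strand were at 0 in 1287 of 1288 cases, introns included, whereas 1166 of 1508 such genes on the opposite strand had counts. The counts thus cover whole gene spans, introns included, and keep strand. Levels are therefore also given as CPM per kb of countable span, the bases not shared with another gene on that strand. Where genes are set beside each other in CPM alone, as in the marker sums, span is not adjusted for. Sox2, which lies inside Sox2ot on the same strand, was accordingly listed at 0 in all 6 mES cell libraries.

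Regions called as m5C peaks in all 3 mES cell replicates on the gene's strand were found in 5 of the 77 lncRNAs, 7 regions in all. These regions are shown because they are the only places in these genes where every replicate placed a peak on the gene's strand. A further 7 regions in all 3 replicates lay on the opposite strand of the 77 genes and are not printed. Whether the strand recorded for a peak is that of the RNA was not tested. Each sequence is printed from GRCm38 in the direction of the gene, with capitals on CNGGG (a cytosine, any base, then GGG), the context known for sites of the methyltransferase NSUN2. For Lncenc1, whose region covers 566 bases, the 300 bases at the centre of the stretch covered by all 3 peaks are printed, and they hold no CNGGG.

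Lncenc1, chr13:97495390-97495689 (+ strand): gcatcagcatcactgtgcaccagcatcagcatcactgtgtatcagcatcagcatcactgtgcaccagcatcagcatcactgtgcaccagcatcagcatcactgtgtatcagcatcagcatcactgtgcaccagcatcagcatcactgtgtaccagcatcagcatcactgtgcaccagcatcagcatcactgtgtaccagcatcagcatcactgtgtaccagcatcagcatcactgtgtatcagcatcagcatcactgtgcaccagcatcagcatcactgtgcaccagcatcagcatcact
Gm26573, chr4:146474879-146475123 (- strand): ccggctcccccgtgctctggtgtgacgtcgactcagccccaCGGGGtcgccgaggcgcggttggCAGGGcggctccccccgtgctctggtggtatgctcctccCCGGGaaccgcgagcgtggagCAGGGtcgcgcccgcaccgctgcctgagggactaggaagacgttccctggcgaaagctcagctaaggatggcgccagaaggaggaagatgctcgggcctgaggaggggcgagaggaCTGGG
Gm26917, chr17:39843139-39843288 (+ strand): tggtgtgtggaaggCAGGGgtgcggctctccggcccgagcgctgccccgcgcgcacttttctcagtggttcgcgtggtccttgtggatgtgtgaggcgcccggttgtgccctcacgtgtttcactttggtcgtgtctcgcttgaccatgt
Gm26917, chr17:39844985-39845164 (+ strand): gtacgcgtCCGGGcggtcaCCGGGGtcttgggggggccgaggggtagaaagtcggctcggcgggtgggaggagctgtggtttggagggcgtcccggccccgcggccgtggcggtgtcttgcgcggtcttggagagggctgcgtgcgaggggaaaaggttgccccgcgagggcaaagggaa
Gm26917, chr17:39845940-39846106 (+ strand): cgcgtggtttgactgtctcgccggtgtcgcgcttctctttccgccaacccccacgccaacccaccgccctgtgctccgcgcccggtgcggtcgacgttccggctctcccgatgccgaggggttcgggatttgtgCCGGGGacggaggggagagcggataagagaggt
Gm42418, chr17:39848178-39848426 (+ strand): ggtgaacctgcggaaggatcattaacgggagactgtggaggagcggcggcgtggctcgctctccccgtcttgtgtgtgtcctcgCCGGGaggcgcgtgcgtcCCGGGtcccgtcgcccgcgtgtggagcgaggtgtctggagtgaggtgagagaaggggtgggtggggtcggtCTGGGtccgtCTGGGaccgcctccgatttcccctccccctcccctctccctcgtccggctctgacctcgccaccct
Gm49692, chr12:20196777-20196926 (+ strand): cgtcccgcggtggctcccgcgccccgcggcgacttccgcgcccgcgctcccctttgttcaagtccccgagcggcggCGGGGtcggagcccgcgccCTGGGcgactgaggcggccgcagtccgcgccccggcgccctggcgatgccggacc

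Gm26917 and Gm42418 lie next to each other on chromosome 17 and carried 4 of the 7 regions. RefSeq places Rn18s-rs5, a sequence related to 18S ribosomal RNA, at chr17:39846354-39848202, over most of Gm42418 and starting 13 bases after the end of Gm26917. The first 25 bases of the printed Gm42418 region lie in Rn18s-rs5. Reads from ribosomal DNA copies elsewhere could be assigned to this locus, so the levels of both genes are uncertain as lncRNA levels. The printed Lncenc1 stretch is a tandem repeat: 96.1% of its bases equal the base 44 positions further on, and all 300 are soft-masked as repeat. The regions in Gm26573 and Gm49692 fall in introns and the other 5 in annotated exons. GC content was 70.2% in Gm26573, 81.3% in Gm49692, 63.3% to 71.7% over the 3 regions of Gm26917, 69.1% in Gm42418 and 51.3% in the Lncenc1 stretch.

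The motif was present on the gene's strand in 6 of the 7 printed stretches, and on the other strand in the same 6. Among regions of up to 300 bases anywhere in the mouse peak lists, CNGGG was found on the recorded strand in 67.6% of 1117 regions shared by all 3 replicates and in 50.0% of 30014 regions seen in 1 replicate. On the other strand the shares were 61.2% and 48.3%. A match is a description of the letters and not evidence of a modified base.

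A region in all 3 replicates was carried by 6.49% of the 77 lncRNAs, by 0.430% of 8844 autosomal genes of the same biotypes under the Input minimum and by 1.38% of 4418 autosomal protein-coding genes at or above it. A peak in at least 1 replicate lay in 23 of the 77 genes (29.9%), against 10.6% and 20.6% of those groups. These shares are descriptions and were not adjusted for span or depth. The genes behind the 6.49% include Gm26917 and Gm42418, at the ribosomal RNA locus, and no share without them is given. Over the 77 genes, regions from any replicate numbered 65 on the gene's strand and 99 on the opposite strand, so a peak in the span is not evidence for the lncRNA strand alone. In the 4418 protein-coding genes such regions numbered 1573 on the gene's strand and 3995 on the opposite strand, and in the 8844 less abundant lncRNAs 1340 and 1273. The recorded strand may therefore not be that of the RNA, and the shares above count the gene's strand only. Gm26573 had 18 regions in any replicate and Gm26624 had 7, but in Gm26624 none was shared by all 3. Requiring an exon left 3 genes, and accepting 2 of 3 replicates gave 12.

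The lncRNAs were unequal in abundance by a wide margin. Gm26917 had 17250, 15105 and 15111 CPM in the 3 Input libraries and 43750, 41768 and 41135 CPM in IP. Gm42418 had 2598, 2319 and 2345 CPM in Input and 5169, 4926 and 5088 CPM in IP. Both were higher in every IP library than in any Input library, by CPM. Together they took 1.82% ± 0.139 (SD, n = 3) of Input gene counts and 4.73% ± 0.144 of IP gene counts. The other 75 lncRNAs together took 0.949% ± 0.00405 of Input and 0.785% ± 0.0186 of IP.

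Pvt1 (chr15:62037986-62378096), a lncRNA downstream of Myc that is often amplified with it in tumours, was the most counted lncRNA outside that pair. It had 1035, 1062 and 1073 CPM in Input and 460.5, 541 and 566 CPM in IP, with no overlap. Lncenc1 (chr13:97434970-97497007), a lncRNA of naive embryonic stem cells linked to self-renewal and glycolysis, came next with 824, 818 and 832 CPM in Input. Its IP values of 1274, 1063 and 1170 CPM all lay above Input, so Lncenc1 ranked above Pvt1 in IP. Per kb of countable span Lncenc1 stood at 13.3 CPM in Input and 18.8 in IP, whereas Pvt1, whose span is far longer, stood at 3.11 and 1.54. The remaining 73 genes had mean Input levels between 51.9 and 299 CPM.

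Per kb, the 75 lncRNAs outside the ribosomal pair spanned 0.0908 to 47.2 CPM in Input, with a median of 3.04, and 0.199 to 28.2 CPM in IP, with a median of 1.68. The corresponding medians of the 4418 protein-coding genes with the same Input minimum were 2.79 and 1.56. The highest Input level per kb belonged to 1110038B12Rik (47.2 CPM), a host of Snord52, followed by 2410006H16Rik (45.9), a host of Snord49a, Snord49b and Snord65. Dancr (25.3), a host of Snora26 known for holding back differentiation, and Mir17hg (19.3), the precursor of the miR-17–92 cluster, came after them. These hosts of small RNAs have short spans. Gm26573, with an annotated span of 871504 bases, and Sox2ot stood lowest, at 0.0908 and 0.120 CPM per kb.

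**Figure D1:**
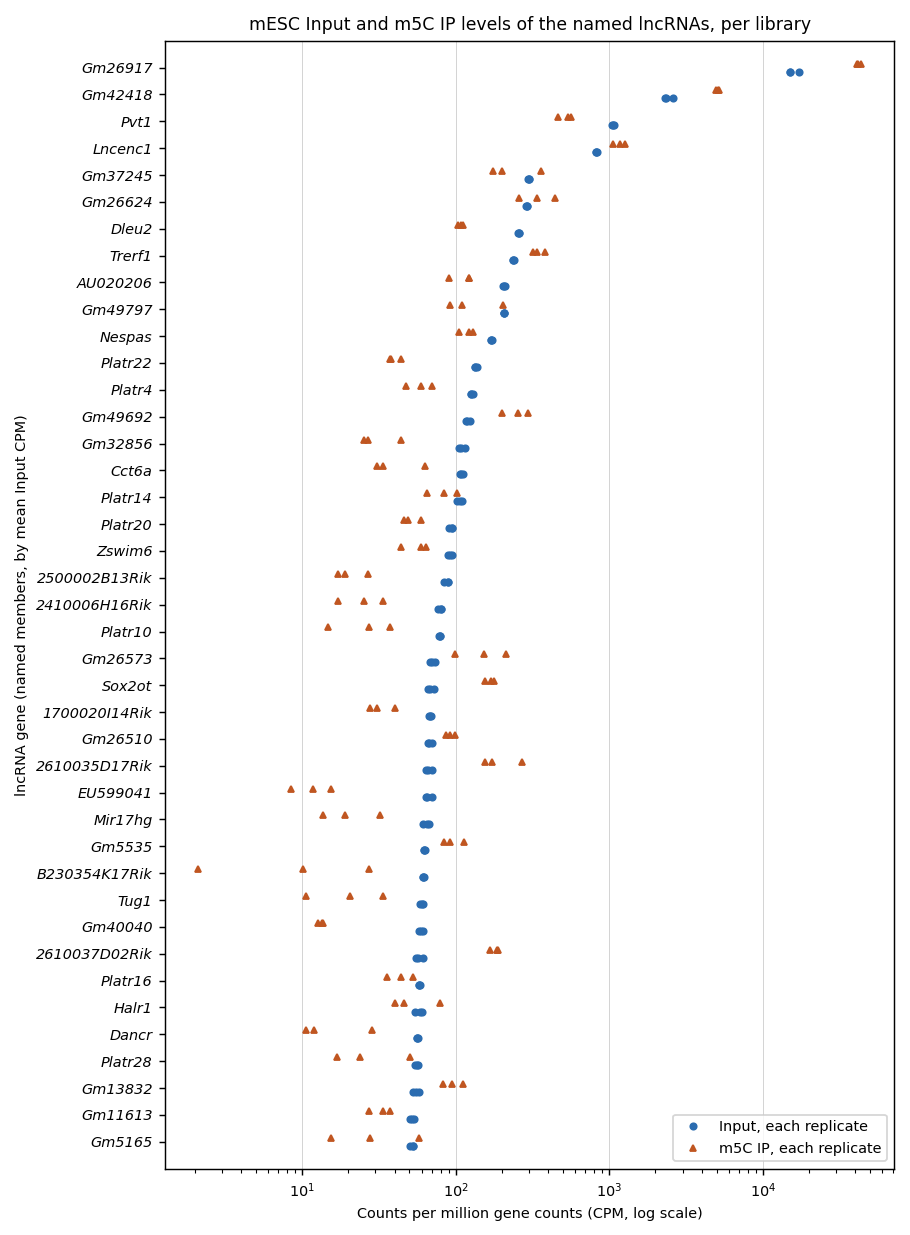
CPM on a log scale for the named lncRNAs, with each of the 3 Input replicates as a circle and each of the 3 IP replicates as a triangle. Input replicates lie almost on top of each other, IP replicates are spread more widely, and 2610037D02Rik, 2610035D17Rik and Sox2ot sit to the right in IP while EU599041 and Gm40040 sit far to the left.

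Replicates agreed closely in Input and less in IP. The coefficient of variation of CPM over 3 libraries had a median of 2.27% in Input and 21.8% in IP over the 75 lncRNAs, which held a median of 7755 Input counts but only 107 IP counts, summed over 3 libraries. The widest IP spread was that of B230354K17Rik, with 2.11, 27.2 and 10.1 CPM and a coefficient of variation of 97.5%. Its lowest value stands for 1 count.

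In edgeR's quasi-likelihood test with TMM scaling and Benjamini–Hochberg adjustment over 20244 genes, 66 of the 77 lncRNAs were lower in IP than in Input, 4 were higher and 7 did not pass 0.05. The rule used the Input counts that form the denominator of IP/Input, so these calls are descriptive and are set beside genes chosen the same way. Over all tested genes 42.0% were lower and 39.9% higher. Among 4531 autosomal genes of any biotype with at least 5000 Input counts, 95.0% were lower and 1.66% higher, and among 3360 tested genes of the same biotypes under the minimum 10.5% were lower and 70.2% higher. The median log2 IP/Input was -1.59 for the 77 lncRNAs (-1.62 without the ribosomal pair), -1.80 for the 4531 genes, 3.65 for the less abundant lncRNAs and -0.17 for all tested genes. Along genes of the same biotypes the median fell from 5.03 below 100 Input counts to 0.40 between 100 and 1000 and -1.31 between 1000 and 5000, and in protein-coding genes it was 4.95, 0.96 and -1.11 in those bins.

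The directions depended on scaling. With library size alone the median of all tested genes moved from -0.17 to 0.83, and 42 lncRNAs were lower and 17 higher, beside 69.2% lower and 8.81% higher among autosomal genes with the same Input minimum. With Input thinned at random to the depth of IP, 23 were lower and 18 higher, beside 43.2% and 11.4% of those genes. With no filter on low counts 72 were lower and 0 higher (0 at an unadjusted p under 0.05 by edgeR). Relative to the median of all tested genes, the lncRNA median was -1.42 with TMM and -1.42 with library size alone, but -0.43 with thinned Input. Across 7 settings of scaling, tool, filter, GC and depth, 23 lncRNAs were lower and past the threshold in every one, 47 were lower in every one, 2 were higher in every one and 28 changed direction. By CPM, 48 lncRNAs had all 3 IP values below all 3 Input values, 15 had all above and 14 overlapped, beside 27.6% below and 47.7% above over all tested genes. Of the 66 called lower with TMM, 5 had IP CPM above Input in every library: Lncenc1, Trerf1, Gm29724, Gm26510 and Gm5535. The order of the lncRNAs by log2 IP/Input changed little, with Spearman's rho of 0.99 between TMM and thinned Input and 0.87 between TMM and the GC offset.

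**Figure D2:**
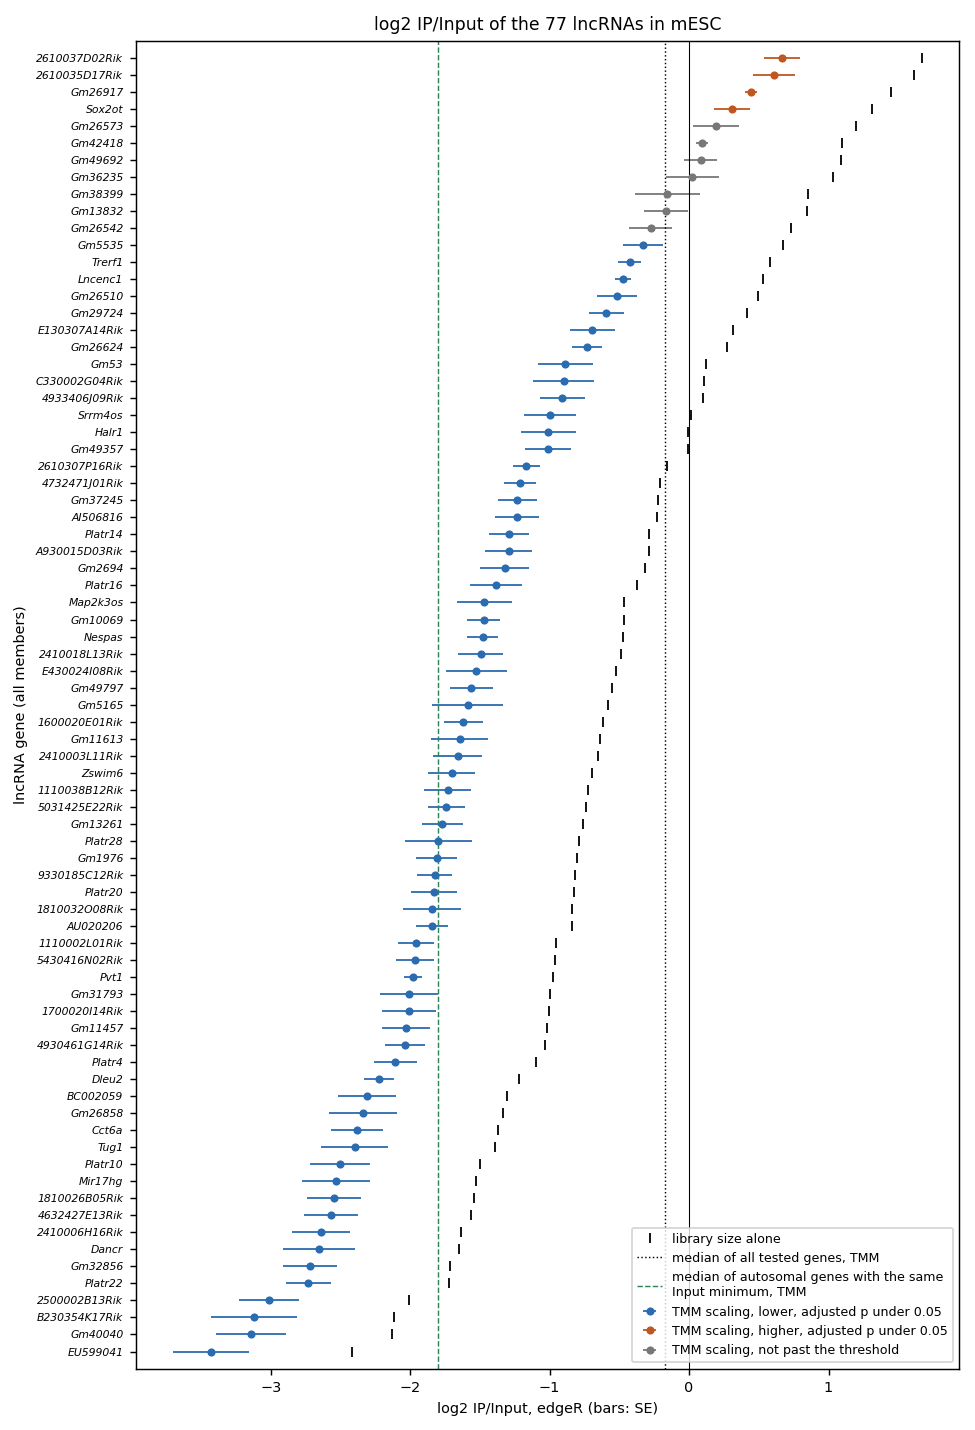
log2 IP/Input of the 77 lncRNAs in mES cells (points, edgeR with TMM; bars, SE), with the value from library size alone as a black tick and the medians of all tested genes and of the 4531 genes with the same Input minimum as lines. The ticks lie to the right of every point by about the same amount, so the order is kept while the count on either side of 0 is not.

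**Figure D3:**
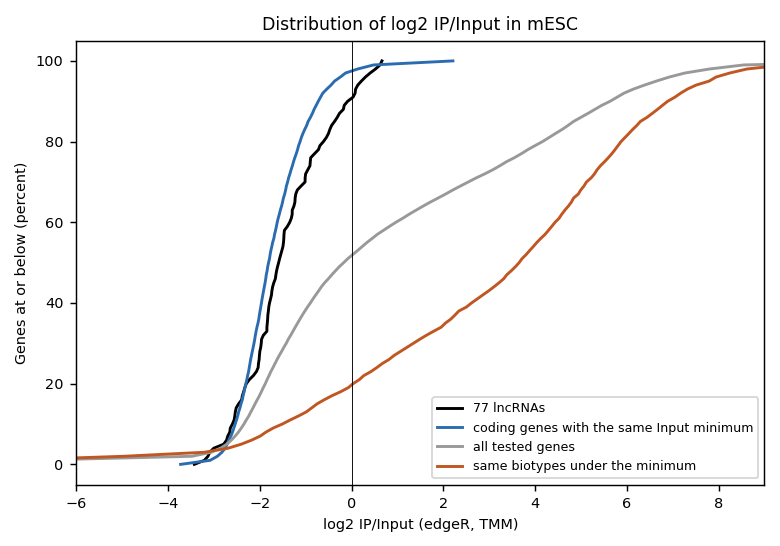
Cumulative percentage of genes (y axis) against log2 IP/Input (x axis) for the 77 lncRNAs, protein-coding genes with the same Input minimum, all tested genes and lncRNAs under the minimum. The curve of the 77 lncRNAs runs close to that of the abundant protein-coding genes, with medians of -1.59 and -1.81, and far to the left of the less abundant lncRNAs, with a median of 3.65.

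The highest log2 IP/Input belonged to 2610037D02Rik (chr15:96134819-96284495), which starts 3023 bases from Arid2, a chromatin-remodelling subunit gene on the other strand. It had 57.1, 55.4 and 61.3 CPM in Input and 186, 168 and 187 CPM in IP, a log2 IP/Input of 0.66 ± 0.13 (SE). Next was 2610035D17Rik (chr11:113043895-113201838), with 65.9, 70.6 and 64.5 CPM in Input and 171, 155 and 270.1 CPM in IP, a log2 of 0.61 ± 0.15. These are the 2 genes above 0 in all 7 settings, although without a filter on low counts neither passed the threshold (adjusted p = 0.12 and 0.22). Gm26917 followed at 0.44 ± 0.04, a value that became -0.08 with a GC offset. Its exons held 69.1% GC, the highest of the 77.

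Sox2ot (chr3:34104270-34682619) is the transcript that overlaps Sox2, a pluripotency gene. It had 65.7, 71.8 and 68.5 CPM in Input and 177, 170.04 and 155 CPM in IP, and all IP values lay above Input. Its log2 IP/Input was 0.31 ± 0.13, and leaving out IP replicate 2 or any Input library took the call away (adjusted p between 0.053 and 0.16 by edgeR). With the replicate block the value was 0.31 (adjusted p = 0.18), and with no filter on low counts it was -0.13.

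Lncenc1 (-0.48), Trerf1 (-0.43), Gm26510 (-0.52) and Gm5535 (-0.33) made up the rest of the 8 highest past the threshold with no overlap in CPM. All 4 were above 0 with library size alone, at 0.53, 0.58, 0.49 and 0.67. Trerf1 had 238, 240.5 and 237 CPM in Input and 321, 379 and 339 in IP. It is annotated as processed_transcript here but as protein-coding in RefSeq, as are Cct6a, Zswim6, Gm32856, EU599041 and Gm5165, so these 6 may not be non-coding. The 7 genes not past the threshold were Gm42418, Gm49692, Gm36235, Gm26542, Gm38399, Gm26573 and Gm13832. Among them Gm26573 moved between -0.08 without IP replicate 2 and 0.44 without IP replicate 1.

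The lowest value was that of EU599041 (chr7:43214039-43226842), with 64.6, 64.5 and 69.6 CPM in Input and 8.45, 15.3 and 11.8 CPM in IP, a log2 IP/Input of -3.43 ± 0.27. Gm40040 (chr3:41477577-41482391) had 58.1, 61.5 and 59.6 CPM in Input and 12.7, 13.6 and 13.5 CPM in IP, a log2 of -3.14 ± 0.25. It lies beside Platr4 on the same strand. B230354K17Rik, which overlaps the start of the splicing factor gene Cdc5l on the other strand, stood at -3.12 ± 0.31. Then came 2500002B13Rik at -3.01 ± 0.22, which starts 194 bases from Sap30, a gene of the SIN3 histone deacetylase complex, in the other direction. Platr22, Gm32856, Dancr and 2410006H16Rik completed the 8 lowest, between -2.73 and -2.64. In all 8 genes every IP value lay below every Input value. Their IP levels rested on 20 to 66 counts summed over 3 libraries.

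The 7 Platr genes, named as pluripotency-associated transcripts, were lower with TMM, as were 95.0% of genes with the same Input minimum. They had a median log2 of -1.83 and ran from -2.73 in Platr22 to -1.29 in Platr14. Platr22 had 133, 134 and 137 CPM in Input and 38.0, 37.4 and 43.9 CPM in IP. Platr14 had 109.7, 107 and 103 CPM in Input and 65.5, 102 and 84.4 CPM in IP. Its highest IP value was just under its lowest Input value. Platr14 and Platr16 did not pass the threshold with library size alone (log2 of -0.29 and -0.38). Halr1, a lncRNA of the Hoxa locus, had 60.2, 58.3 and 54.7 CPM in Input and 40.1, 45.9 and 79.3 CPM in IP. Its groups overlapped, and its log2 of -1.01 became 0.30 with thinned Input.

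Of 10 hosts of a named microRNA or small nucleolar RNA, 9 were lower and Sox2ot was higher, with a median log2 of -2.03, beside 95.0% lower among genes with the same Input minimum. Dleu2, the host of Mir15a and Mir16-1, had 256.5, 257 and 255 CPM in Input and 112, 104 and 108 CPM in IP, a log2 of -2.22 ± 0.11. Mir17hg had 64.7, 61.0 and 66.6 CPM in Input and 19.01, 13.6 and 32.1 CPM in IP, a log2 of -2.53 ± 0.25. Dancr had 56.3, 56.6 and 55.8 CPM in Input and 10.6, 11.9 and 28.7 CPM in IP. In Dleu2, Mir17hg and Dancr every IP value was below every Input value. The host 2610307P16Rik was closer, with a mean of 201 CPM in Input and 176 CPM in IP, and in AI506816 the groups overlapped. The small RNA genes themselves share the strand of their host. Their own counts were not looked up, and the check of genes inside coding genes left out the shortest genes.

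Tug1 (chr11:3639785-3649673), a widely expressed nuclear lncRNA, had 61.0, 60.2 and 59.0 CPM in Input and 10.6, 20.4 and 33.8 CPM in IP, a log2 of -2.40 ± 0.24. 1700020I14Rik, known as Cyrano for its part in the decay of miR-7, had 69.3, 67.5 and 67.9 CPM in Input and 27.5, 30.6 and 40.5 CPM in IP, a log2 of -2.01 ± 0.19. Nespas, the imprinted antisense transcript of the Gnas locus, had 172.6, 169 and 171 CPM in Input and 106, 122 and 130 CPM in IP, a log2 of -1.48 ± 0.11. Gnas on the other strand had 60.1 CPM in Input and 157 CPM in IP, a mean of 3 libraries each.

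Genes on each side of the minimum of 5000 Input counts were as follows. Gm13832, Gm11613 and Gm5165, just inside with 5346, 5032 and 5019 Input counts, had log2 IP/Input of -0.16, -1.64 and -1.59. Just outside were 2700038G22Rik, 2610020C07Rik and Gm19705, with 4971, 4965 and 4916 counts and log2 values of -2.74, -2.38 and -1.41.

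Span length and level per kb moved with log2 IP/Input across the lncRNAs. Over the 75 outside the ribosomal pair, Spearman's rho with log2 IP/Input was 0.65 for annotated span, -0.62 for the share of the span in exons, -0.69 for Input CPM per kb and 0.26 for exon GC content. It was 0.01 for the repeat-masked share of the span and -0.03 for summed Input counts. Input CPM enters the ratio, the genes share the same 6 libraries, and no p is given. The 25 genes with the shortest spans (1.93 to 16.2 kb) had a median log2 of -2.03, and all 25 were lower, beside 95.0% of genes with the same Input minimum. The 25 with the longest spans (64.5 to 872 kb) had a median of -0.91, with 19 lower, 3 higher and 3 not past the threshold. From the shortest to the longest spans the median Input level fell from 9.48 to 0.940 CPM per kb and the median IP level from 4.68 to 1.13 CPM per kb. IP levels per kb thus varied over a narrower range than Input levels, with a ratio of the 90th to the 10th percentile of 9.80 in IP and 20.0 in Input.

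**Figure D4:**
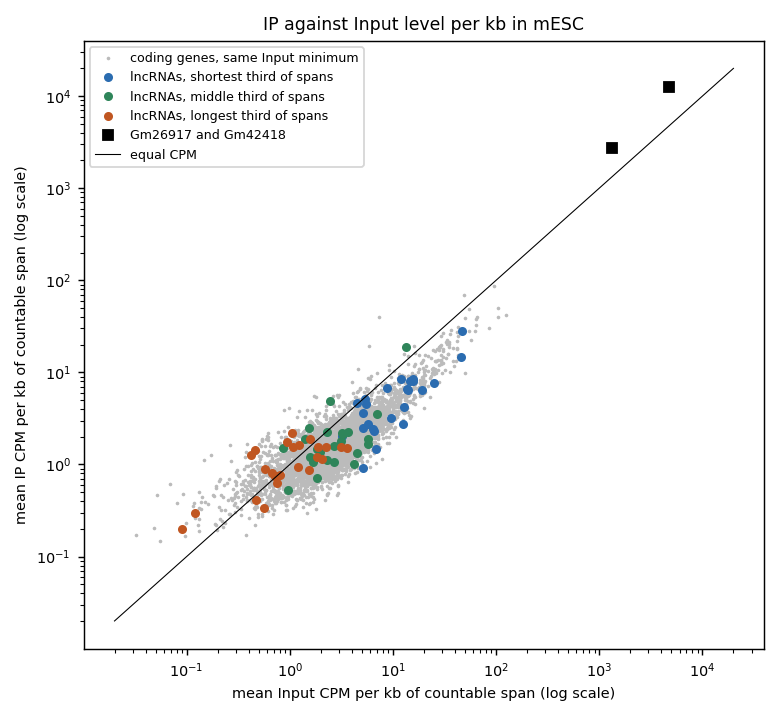
Mean IP CPM per kb of countable span (y axis) against mean Input CPM per kb (x axis), both on log scales, for the lncRNAs coloured by their annotated span (25 shortest, 25 middle, 25 longest), Gm26917 and Gm42418 (squares) and protein-coding genes with the same Input minimum (grey). Short lncRNAs lie below the line of equal CPM at high Input, long ones near or above it at low Input, and the grey cloud has the same tilt.

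A protein-coding gene overlapped or lay within 5000 bp of 41 of the 77 lncRNAs. It was on the opposite strand and overlapping in 23, divergent with starts within 5000 bp in 7, and overlapping on the same strand in 5. Of the 40 neighbours tested, 28 were lower and 10 higher, with a median log2 of -1.12 against -1.65 for their lncRNAs, beside 42.0% lower and 39.9% higher over all tested genes. The lncRNAs were chosen for high Input, the denominator of the ratio, and the neighbours were not, so the medians are not like for like. The neighbour had the higher log2 in 21 of 26 pairs where the lncRNA had more Input counts, and in 5 of 14 pairs where it had fewer. Tug1 and Morc2a, which overlap on opposite strands, had 60.1 and 226 CPM in Input and 21.6 and 60.2 CPM in IP. In Gm13261, antisense to Sfmbt2, the lncRNA had 109 CPM in Input and 62.2 CPM in IP, whereas Sfmbt2 had 209 CPM in Input and 343 in IP.

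Factors that keep RNA in the nucleus, degrade it there or methylate it, 32 of 34 listed names being found, were also looked up as transcripts. With TMM, 28 were lower and 1 was higher of 32 tested, with a median log2 of -1.93, beside 95.0% lower and 1.66% higher among autosomal genes with at least 5000 Input counts and 42.0% and 39.9% over all tested genes. The higher one was Nxf2, a germline relative of an RNA export factor, with a mean of 0.011 CPM in Input and 20.4 CPM in IP. Transcripts of the methyltransferases Nsun2 and Nsun6 stood at -1.88 and -1.24, and that of Hnrnpu, a scaffold protein that holds RNA on chromatin, at -1.86. The list was chosen with earlier results of these data known.

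A human gene with the same symbol was found for 8 lncRNAs: PVT1, DLEU2, TRERF1, CCT6A, ZSWIM6, MIR17HG, TUG1 and DANCR. Of these, 4, TRERF1, CCT6A, ZSWIM6 and TUG1, are annotated as protein-coding in the human tables. RefSeq also lists mouse Trerf1, Cct6a and Zswim6 as protein-coding, so for them both genes may be coding. For TUG1 the symbol need not name the same kind of transcript. K562 values played no part in the rule. In K562, 3 of the 8 were lower in IP and 1 was higher by edgeR, beside 16.4% lower and 15.1% higher over 14522 tested genes. Those shares are not matched for Input counts. The lower ones, PVT1, DLEU2 and ZSWIM6, had the highest mean K562 Input of the 8 (647, 255 and 150 CPM). The higher one, TRERF1, had the lowest (7.06 CPM). K562 Input replicates differed by no more than counting noise (chi-square per degree of freedom 0.912 to 1.03 between pairs), so the p-values rest on a very small spread.

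PVT1 had 647, 643 and 652 CPM in K562 Input and 519, 404 and 354 CPM in IP, a log2 IP/Input of -0.80 ± 0.13 (adjusted p = 3.75e-08). All IP values lay below Input, as for mouse Pvt1. DLEU2 had 258, 252 and 256 CPM in Input and 195, 179.7 and 161 CPM in IP, a log2 of -0.72 ± 0.18 (adjusted p = 0.00075). ZSWIM6 had 149.7, 149.7 and 149.5 CPM in Input and 92.6, 89.9 and 150.4 CPM in IP, a log2 of -0.67 ± 0.23 (adjusted p = 0.016), and its IP value in replicate 3 was above Input. Leaving out IP replicate 1 or 2 took that call away (adjusted p = 0.13 and 0.14 by edgeR), as did DESeq2 (adjusted p = 0.086), RLE scaling (0.067) and library size alone (0.23). The DLEU2 call was lost with library size alone (adjusted p = 0.064 by edgeR). TRERF1 was the one that was higher, with 6.24, 7.11 and 7.83 CPM in Input and 18.5, 71.9 and 64.4 CPM in IP. That is 2, 8 and 6 IP counts, a log2 of 2.66 ± 0.51 (adjusted p = 6.57e-06). CCT6A, MIR17HG, TUG1 and DANCR did not pass the threshold, with log2 values of 0.50, -0.37, -0.07 and -0.69 and no more than 12 IP counts in any library. DANCR had 0 counts in 1 IP library, which allows up to 27.8 CPM.

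In a joint fit over both cell types, 6 of the 8 had a higher log2 IP/Input in K562 than in mES cells and 0 a lower one, beside 16.5% higher and 14.5% lower over 14235 genes. At an unadjusted p under 0.05 by edgeR, 0 were lower. The differences, K562 minus mES cells, were 0.54 ± 0.18 (SE) for Pvt1, 0.87 ± 0.25 for Dleu2, 2.45 ± 0.56 for Trerf1, 2.24 ± 0.44 for Cct6a, 1.53 ± 0.49 for Mir17hg and 1.69 ± 0.60 for Tug1. For Zswim6 the difference was 0.40 ± 0.35 and for Dancr 1.33 ± 0.84, neither past the threshold. The joint fit has its own scaling, so these are not the separate values subtracted. With RLE scaling or library size alone, Trerf1 and Cct6a were the 2 that still passed. Both are annotated as protein-coding in RefSeq and in the human tables. The mES cell side of each difference contains the Input counts used to choose the genes, and species, cell type and depth cannot be told apart.

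**Figure D5:**
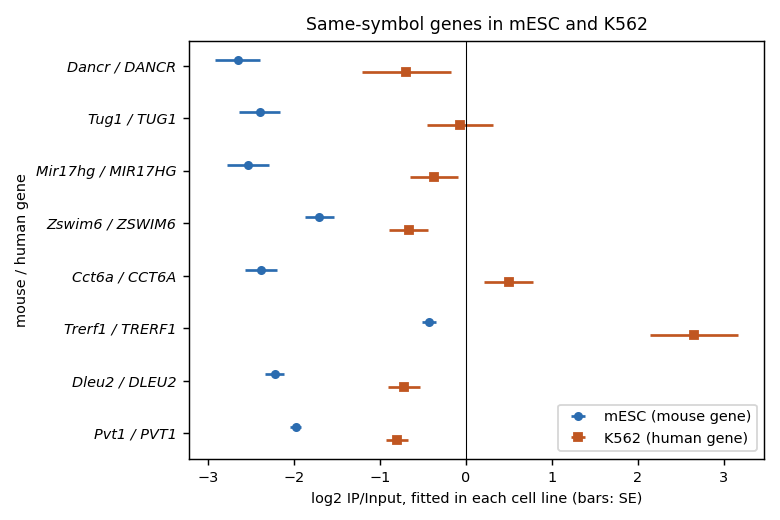
log2 IP/Input (x axis; bars, SE) of the 8 genes with the same symbol in mouse and human, fitted within mES cells (circles) and within K562 (squares). Every square lies to the right of its circle, on scales set within each cell type.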

How the data were processed

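The 12 libraries were Input and m5C IP of chromatin-associated RNA from mES cells and K562 cells, 3 of each. The authors trimmed reads with Trimmomatic 0.39, aligned them with HISAT2 2.1.0, handled alignments with SAMtools 1.16.1 and called peaks with MACS2. They deposited raw gene counts per library, which were used as deposited, and one peak list per mES cell IP replicate. Repeated lines in the peak lists (134, 169 and 167) were dropped. HTSeq-type summary lines held 19.0% to 19.3% of records in mES cell Input and 71.4% to 71.7% in IP, and stayed out of library sizes. Gene names, biotypes and spans were matched by identifier for 99.9% of mouse and 99.2% of human genes, and RefSeq was matched by symbol.

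Counts were tested with edgeR 4.0.16 (R 4.3.3, filterByExpr, TMM, glmQLFTest, Benjamini–Hochberg threshold of 0.05), within each cell line and in a joint fit over genes with matching symbols. DESeq2 1.42.0, RLE, library size alone, no filter, a GC offset, thinned Input, a replicate block and left-out libraries were the alternatives. On simulated counts for 16688 mouse genes, 196 of 200 changed genes were recovered, with 13 false calls. Simulated IP and Input differed only in depth and in those genes. The simulation therefore cannot show how calls hold under the wide shifts with Input counts and scaling seen here. Peaks of the 3 replicates were merged by strand with an overlap of at least 1 bp.

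The members and the gene lists were chosen with earlier results of these data known. Named genes were those with a known role, the 10 with most Input counts, the 8 highest and 8 lowest log2 IP/Input past the threshold without overlap, those with a shared peak region, those with a human counterpart and 3 on each side of the Input minimum. Other genes are named for their values, chosen after these were seen, where a count or a neighbour calls for it. Depth limits IP most: 3 counts equal up to 6.34 CPM in mES cells and up to 32.2 CPM in K562, and such limits cover counting error only.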

Additional observations from a re-analysis of the deposited data

Results flagged for a closer look

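For 6 genes the joint test of mES cell and K562 libraries (edgeR, adjusted over 14235 genes) gave a different log2 IP/Input in the 2 cell lines, higher in K562 in each. The difference was 0.54 for Pvt1 (adjusted p = 0.0198), 0.87 for Dleu2 (adjusted p = 0.0081), 2.45 for Trerf1 (adjusted p = 0.00114), 2.24 for Cct6a (adjusted p = 0.000208), 1.53 for Mir17hg (adjusted p = 0.0168) and 1.69 for Tug1 (adjusted p = 0.0318). The median difference over all genes of the joint fit was 0.16. The mouse Input counts used to choose the genes enter each difference, so these values are descriptive. K562 Input levels were 7.06 CPM for TRERF1, 54.9 for CCT6A, 86.1 for MIR17HG and 40.8 for TUG1, against 238, 109, 64.1 and 60.1 CPM for the mouse genes. With RLE scaling the adjusted p was 0.0051 for Trerf1 and 0.0019 for Cct6a, and between 0.092 and 0.72 for the other 4. Trerf1 and Cct6a are annotated as protein-coding in RefSeq.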

How the results depend on the processing

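With library size alone, 17 lncRNAs were higher and 42 lower, and with Input thinned to IP depth 18 were higher and 23 lower. With no filter on low counts 0 were higher. An Input minimum of 2500 counts gave 140 genes with 9 higher and 118 lower, and a minimum of 10000 gave 29 genes with 1 higher and 26 lower, since other genes were then counted. Relative to all tested genes, the lncRNA median of -1.42 became -0.43 with thinned Input, -2.63 with no filter and -1.36 with the GC offset, and lay between -1.42 and -1.31 when 1 library was left out. DESeq2 and RLE kept both counts within 1.5 times, as did leaving out single libraries and leaving out Gm26917 and Gm42418, an alternative chosen after seeing the data. For the changes above, the cause was not tested.

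Same-numbered Input and IP libraries correlated at 0.019 to 0.027 in their deviations in mES cells and at -0.0027 to 0.014 in K562. IP counts are few, so this cannot show whether the replicate numbers pair the libraries. With the replicate block 3 lncRNAs were higher and 64 lower, the relative median was -1.41, the K562 counts stayed at 1 and 3, and 6 genes differed between cell lines.

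Named genes kept their direction in 506 of 533 values. Those that turned round with library size alone were Gm13832 (0.84), Gm26510 (0.49), Gm26624 (0.27), Gm5535 (0.67), Lncenc1 (0.53) and Trerf1 (0.58). With thinned Input these were Gm13832 (1.29), Gm26510 (0.75), Gm26624 (0.63), Gm37245 (0.11), Gm5165 (0.058), Gm5535 (1.11), Halr1 (0.30), Lncenc1 (0.84), Nespas (0.055) and Trerf1 (0.88). With the GC offset they were Gm26573 (-0.11), Gm26917 (-0.077) and Gm42418 (-0.43). With no filter they were Gm26573 (-0.25), Gm42418 (-0.35), Gm49692 (-0.36) and Sox2ot (-0.13). Gm13832 was at 0.0067 with DESeq2 and 0.0066 with RLE. Leaving out 1 library moved Gm26573 between -0.081 and 0.44 and Gm49692 between -0.041 and 0.26.

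In K562, library size alone gave 2 genes higher and 1 lower. Between cell lines, RLE and library size alone each left 2 genes higher. Genes with a shared peak region numbered 12 with 2 of 3 replicates, 8 with strand ignored and 3 with an exon required. There were 5 when peaks from each 2 replicates had to overlap by a large part of the longer peak. With 1 replicate left out there were 7 to 9.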
